A study of Homo sapiens with 4 samples.

Results

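CAV1, TFPI, PTBP2, AKAP12 and TMEM123 are 5 protein-coding genes of the 7640 listed in an RNA sequencing experiment on human colorectal cancer cells with EZH2 knockdown. They were selected on the change in their FPKM value after EZH2 short hairpin RNA (shRNA), which was upward in both cell lines. The direction of that change is therefore a property of the choice, and it is described here with no test. All 5 had a mean of at least 1 FPKM over the libraries, the mark used to call a gene measured, as did 6139 genes in all. FPKM is the number of fragments on a gene, scaled by its transcript length and by the mapped total of the library.

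The experiment held 4 libraries, 1 per group: HCT116 cells with a control shRNA, HCT116 cells with EZH2 shRNA, RKO cells with a control shRNA and RKO cells with EZH2 shRNA. HCT116 and RKO are established human colorectal cancer cell lines. Per the study's methods, the EZH2 shRNAs were built in the pLKO.1 vector system, and stable knockdown lines were made with lentivirus. The methods do not state the vector or delivery of the control. Which EZH2 hairpin was sequenced was not given in the sources used here, and with 1 library per group there was no replicate of any group.

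EZH2 is the enzyme of the Polycomb complex PRC2. It methylates lysine 27 of histone H3, a mark that holds many developmental genes silent. CAV1 encodes caveolin-1, the coat protein of the flask-shaped membrane pits called caveolae. TFPI encodes tissue factor pathway inhibitor, a protease inhibitor that blocks the start of blood clotting by factor VIIa and tissue factor. AKAP12, also called gravin, is a scaffold that binds protein kinases A and C beneath the plasma membrane. PTBP2 is the neuronal form of the polypyrimidine tract binding proteins, which repress exons during splicing. TMEM123, also called porimin, is a mucin-like membrane protein that was described in connection with oncotic cell death.

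The 250 bases before the annotated start of 3 of the genes are shown because they run from a CpG-poor to a CpG-rich start and from none to 3 SP1 boxes. They come from RefSeq on build GRCh38.p14, and capitals mark the SP1 box GGGCGG on either strand (CCGCCC when read from the other strand).
CAV1: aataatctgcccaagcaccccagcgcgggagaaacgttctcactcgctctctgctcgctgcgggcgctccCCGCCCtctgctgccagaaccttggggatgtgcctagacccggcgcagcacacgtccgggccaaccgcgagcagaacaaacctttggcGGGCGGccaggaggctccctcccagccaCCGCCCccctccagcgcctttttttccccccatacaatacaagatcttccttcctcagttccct
TFPI: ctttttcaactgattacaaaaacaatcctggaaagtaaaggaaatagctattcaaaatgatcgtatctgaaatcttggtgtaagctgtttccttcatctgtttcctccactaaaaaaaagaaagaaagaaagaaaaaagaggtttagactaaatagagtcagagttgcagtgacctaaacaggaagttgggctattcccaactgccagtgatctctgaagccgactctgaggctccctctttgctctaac
TMEM123: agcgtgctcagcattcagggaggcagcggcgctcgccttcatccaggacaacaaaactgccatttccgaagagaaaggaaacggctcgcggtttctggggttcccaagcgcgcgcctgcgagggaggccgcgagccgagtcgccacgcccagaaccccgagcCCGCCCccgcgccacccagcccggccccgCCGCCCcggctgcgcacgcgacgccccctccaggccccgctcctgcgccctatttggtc
The CAV1 window, the outermost of 3 annotated starts of the gene, lies at chr7:116524759-116525008 on the plus strand. It was 63.6% G+C with 18 CpG dinucleotides, and it held 3 SP1 boxes; the windows of its other 2 starts were 63.2% and 73.2% G+C with 3 and 2 boxes. The TFPI window, at chr2:187554436-187554685 on the minus strand, was 38.4% G+C with 2 CpG dinucleotides and held no match to any motif searched. The TMEM123 window, at chr11:102452766-102453015 on the minus strand, was 71.2% G+C with 31 CpG dinucleotides and held 2 SP1 boxes. The single PTBP2 window was at 55.2% G+C with 11 CpG dinucleotides and 1 SP1 box. AKAP12 had 3 annotated starts, whose windows were 61.2%, 50% and 72.8% G+C and held 1, 0 and 2 SP1 boxes.

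An SP1 box was found in 42.6% of all 35116 promoter windows of this length, so its presence in 4 of the 5 genes is a description of their sequence and not of a bound site. TEAD (GGAATG, in 11.9% of all windows) matched once, in the middle start of AKAP12. The TATA box (TATAAA, 10.7%), the AP-1 site (TGANTCA, 6.57%) and the cyclic AMP response element (TGACGTCA, 1.65%) matched in none of the windows of the 5 genes. All motifs were searched on both strands. The 5 genes shared no motif of the 5 searched, and their promoters ran from CpG-poor to CpG-rich.

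The labels were checked first by the targeted gene. EZH2 was at 31.49 FPKM in HCT116 control, 12.61 in HCT116 EZH2 shRNA, 33.61 in RKO control and 6.61 in RKO EZH2 shRNA. The count ratio of shRNA to control, scaled for depth, was 0.449 (95% interval 0.409 to 0.492) in HCT116 and 0.227 (0.202 to 0.253) in RKO. EZH2 messenger RNA was thus lower in each knockdown library than in its control, and more so in RKO. These intervals, and those that follow, are exact binomial and cover counting error only, not the spread between cultures. Expected counts over the listed genes summed to between 7898152 and 8185776 per library, from an estimated depth of 17027800 to 19006289 fragments.

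The lines were also compared with cell type markers, of which 9 of 12 epithelial markers were in the table. Their summed level was 2846 and 2717 FPKM in the HCT116 control and EZH2 shRNA libraries but 168 and 205 FPKM in those of RKO. RKO had 0.00 and 0.06 FPKM of EPCAM, 0.04 and 0.00 of KRT19 and 0.10 and 0.10 of CDH1, while KRT18 was present at 154 and 188 FPKM. CDX2 was similar in the lines, at 10.66 and 8.95 FPKM in HCT116 and 6.91 and 9.24 in RKO. Every other epithelial marker in the table was lower in both RKO libraries than in both HCT116 libraries. The 3 endothelial markers in the table (VWF, TIE1 and ROBO4) were under 1 FPKM in every library, and their sum ran from 0.13 to 0.76 FPKM. The 2 fibroblast markers in the table, of 10, summed to between 1.97 and 9.15 FPKM. Of 6 leukocyte markers only CD68, a lysosomal protein, was in the table, at 3.24 and 3.54 FPKM in HCT116 and 284 and 271 in RKO.

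CAV1 (gene 857) was a high gene in one line and a low gene in the other. It stood at 165.89 FPKM in HCT116 control and 285.33 in HCT116 EZH2 shRNA, and at 3.74 in RKO control and 14.16 in RKO EZH2 shRNA. Both HCT116 libraries were far above both RKO libraries, and the RKO knockdown level was 8.54% of the HCT116 control level. On the log2(FPKM + 1) scale, used for all changes here, the change after EZH2 shRNA was 0.78 in HCT116 and 1.68 in RKO. The count ratio was 1.72 (1.67 to 1.77) in HCT116, from 7365 and 12578 counts, and 3.68 (3.13 to 4.35) in RKO, from 187 and 680 counts. The larger ratio thus went with the smaller gain in level, which was 10.4 FPKM in RKO against 119 FPKM in HCT116.

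AKAP12 (gene 9590) had the same contrast between the lines in a more extreme form. Its level was 218.61 FPKM in HCT116 control, 404.37 in HCT116 EZH2 shRNA, 2.18 in RKO control and 3.29 in RKO EZH2 shRNA. In HCT116 it ranked 105 and 56 of 6139 measured genes by level, in RKO 4387 and 4195. The change was 0.88 in HCT116 and 0.43 in RKO, the smallest RKO change of the 5 genes. The count ratio was 1.85 (1.82 to 1.88) in HCT116 and 1.47 (1.28 to 1.69) in RKO. It was the only gene of the 5 with a larger change in HCT116 than in RKO as deposited, a difference for which there was no replicate; with a trend on G+C content subtracted, TFPI also had the larger change in HCT116, 0.81 against 0.66. Its share of all listed counts went from 0.372% to 0.683% in HCT116.

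TFPI (gene 7035) was at a similar level in both lines. It was measured at 8.73 FPKM in HCT116 control and 16.56 in HCT116 EZH2 shRNA, and at 6.25 in RKO control and 13.58 in RKO EZH2 shRNA. Each knockdown library was above both control libraries. The change was 0.85 in HCT116 and 1.01 in RKO, and the count ratio was 1.80 (1.60 to 2.03) and 2.40 (2.10 to 2.75).

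PTBP2 (gene 58155) had the largest change of the set in RKO. Its level was 6.38 FPKM in HCT116 control, 11.36 in HCT116 EZH2 shRNA, 2.62 in RKO control and 16.22 in RKO EZH2 shRNA. The order of the lines swapped: RKO stood at 41.1% of HCT116 in the control libraries and at 143% in the EZH2 shRNA libraries. The change was 0.74 in HCT116 and 2.25 in RKO, the latter 14th by size among the 6139 measured genes. The count ratio was 1.78 (1.55 to 2.04) in HCT116 and 6.25 (5.27 to 7.46) in RKO, the latter from 154 and 951 counts.

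TMEM123 (gene 114908) was abundant in all libraries and moved least in HCT116. It was at 109.61 FPKM in HCT116 control, 154.15 in HCT116 EZH2 shRNA, 57.05 in RKO control and 96.90 in RKO EZH2 shRNA. The RKO knockdown level was below the HCT116 control level. Its change was 0.49 in HCT116 and 0.75 in RKO, with count ratios of 1.41 (1.36 to 1.45) and 1.70 (1.63 to 1.77).

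**Figure D1:**
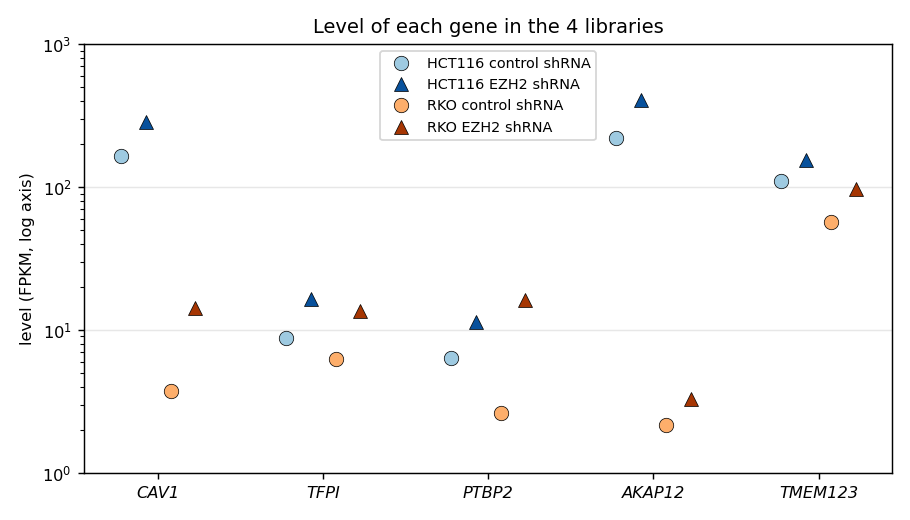
Level of each gene (FPKM, log axis) in the 4 libraries, 1 point per library. CAV1 and AKAP12 sit between 165.89 and 404.37 FPKM in HCT116 and between 2.18 and 14.16 FPKM in RKO, whereas TFPI, PTBP2 and TMEM123 stay closer together across the lines.

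Read against the background, 12.7% of the 6139 measured genes were over 1.2-fold higher after EZH2 shRNA in HCT116, 22.7% in RKO and 3.99% (245 genes) in both. All 5 genes were among the 245. They had been selected on the same change, and nothing is read from that count. Over 1.2-fold lower were 9.66% in HCT116, 10.9% in RKO and 2.66% in both. When all measured genes were ordered by the smaller of their changes in the lines, TFPI was at position 5, CAV1 at 6, PTBP2 at 7, TMEM123 at 44 and AKAP12 at 57. The selection stated no threshold; AKAP12, the last of the 5 in this order, had a smaller change of 0.43.

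**Figure D2:**
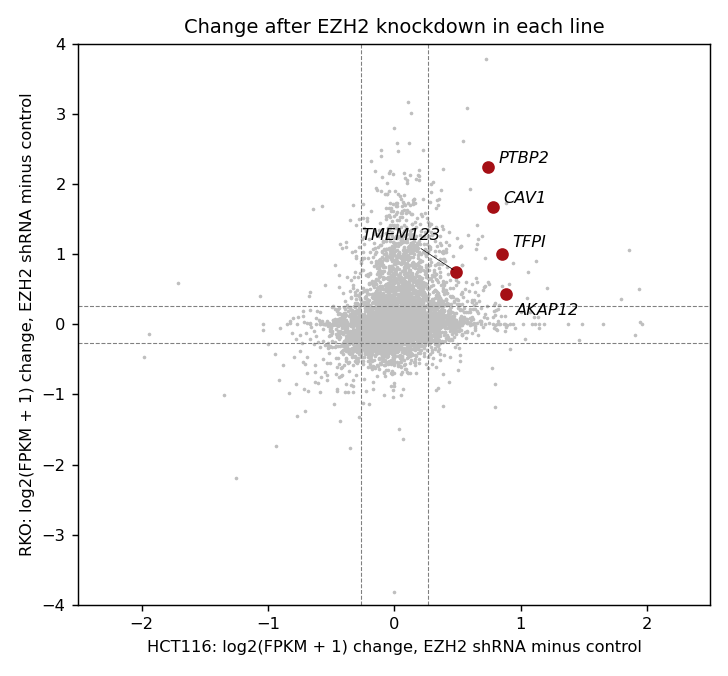
Change in log2(FPKM + 1), EZH2 shRNA minus control, in HCT116 (x axis) and RKO (y axis), with measured genes in grey and the 5 genes named; 2 measured genes lie outside the axes. Of the 5, PTBP2 is highest on the RKO axis at 2.25 with 0.74 in HCT116, and AKAP12 is lowest of the 5 on it at 0.43 with 0.88 in HCT116.

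Base composition moved with the change in RKO. When the measured genes were cut into 5 bins of near-equal size by the G+C content of their transcripts, the bin with the lowest content (33.1% to 42.2%) had a median change of 0.45 in RKO, and the other 4 bins had medians between -0.03 and 0.03. In HCT116 the medians ran from -0.04 to 0.05. PTBP2 (37.8% G+C), TFPI (40.4%) and TMEM123 (41.3%) were in that lowest bin, CAV1 (46.2%) in the next and AKAP12 (48.1%) in the middle one.

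After a smooth trend on G+C content was subtracted, the RKO change went from 2.25 to 1.56 for PTBP2, from 1.01 to 0.66 for TFPI and from 0.75 to 0.51 for TMEM123. For CAV1 it was 1.67 and for AKAP12 0.45, close to the values without it. The HCT116 changes after the same step were 0.74 for CAV1, 0.81 for TFPI, 0.69 for PTBP2, 0.85 for AKAP12 and 0.45 for TMEM123. All 5 genes stayed over 1.2-fold higher in both lines; the part of G+C content in the RKO changes was not tested beyond this step.

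The level in one line against the other was not used to choose the genes, and it was tested with edgeR's quasi-likelihood test over 7409 genes. The fit used 2 RKO and 2 HCT116 libraries with the shRNA state as a term, which left 1 residual degree of freedom. At an adjusted p under 0.05, 37.4% of genes were lower in RKO and 27% were higher. AKAP12 was lower in RKO by a log2 difference of -6.43 ± 0.21 (SE; edgeR adjusted p = 0.000351). CAV1 was lower by -4.53 ± 0.30 (edgeR adjusted p = 0.000552). In FPKM, HCT116 exceeded RKO 100.3-fold for AKAP12 and 44.4-fold for CAV1 in the control libraries, and 123-fold and 20.2-fold in the EZH2 shRNA libraries.

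TMEM123 was also called lower in RKO, by -0.45 ± 0.13 (edgeR adjusted p = 0.0371), but the call was lost when the shRNA term was left out (edgeR adjusted p = 0.202). TFPI differed by -0.01 ± 0.19 (edgeR adjusted p = 0.964), which shows neither a difference nor equality. PTBP2 differed by -0.01 ± 0.43 (edgeR adjusted p = 0.989), a mean over a control pair at -0.87 and an EZH2 shRNA pair at 0.80. The 2 libraries of a line differ in shRNA, and nothing in the labels describes separate cultures. The 1 residual degree of freedom of a gene is how far its shRNA change differs between the lines. These p-values thus measure no spread between cultures of a line, and they hold for these samples only. The 3 calls lay within a background where most genes were called. Epithelial markers were lower in RKO by the sums above, in the same direction, though CDX2 was similar in the lines. Their part was not tested. Fewer cells of a type and less RNA per cell cannot be told apart in bulk RNA.

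**Figure D3:**
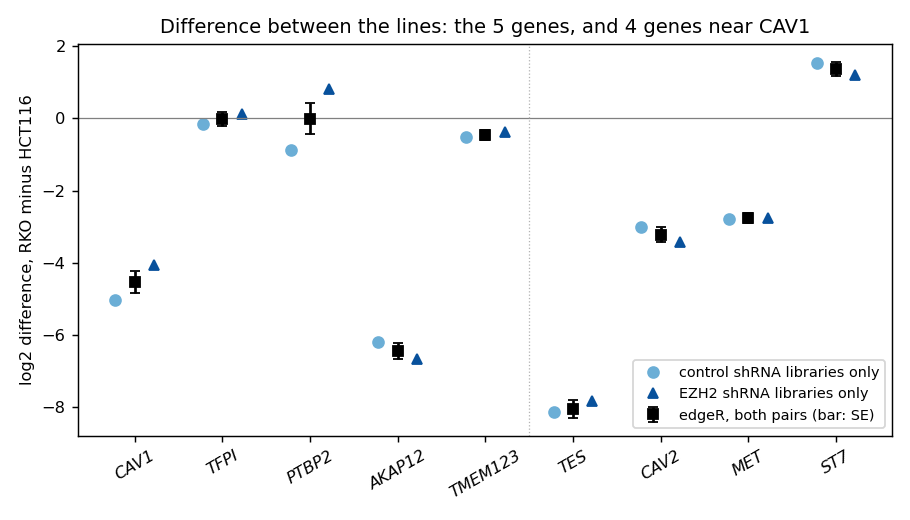
Log2 difference, RKO minus HCT116, for the 5 genes and for 4 genes near CAV1 on chromosome 7; squares are the edgeR estimate with its SE, and the other symbols are the control pair and the EZH2 shRNA pair alone. AKAP12 (-6.43) and CAV1 (-4.53) lie far below 0, and the pairs of PTBP2 fall on either side of it (-0.87 and 0.80).

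A second readout of the same reads is the length that the count and FPKM imply, since RSEM weights the length of a gene by the isoforms it assigns. TFPI stood apart from the others here. Relative to HCT116 control, its implied length was 0.948 in HCT116 EZH2 shRNA, 0.939 in RKO control and 1.04 in RKO EZH2 shRNA. The ratio of shRNA to control was thus 0.948 in HCT116 and 1.11 in RKO, opposite directions, while the middle 90% of 3911 genes ran from 0.965 to 1.03 in HCT116 and from 0.959 to 1.05 in RKO. A larger spread over the libraries than that of TFPI was seen in 8.97% of these genes.

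For TMEM123 the implied length was the same in all libraries to within the rounding of its FPKM values (at most 0.00876%). PTBP2 ranged from 0.990 to 1.00, CAV1 from 0.989 to 1.02 and AKAP12 from 0.993 to 1.02, against a median ratio of largest to smallest of 1.013 over all these genes. The expected counts of CAV1, PTBP2 and TMEM123 were whole numbers in all 4 libraries (to within 0.005), as for 47.6% of measured genes. Those of TFPI and AKAP12 had fractions in every library, which arise when RSEM divides fragments between genes; with which gene was not given.

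**Figure D4:**
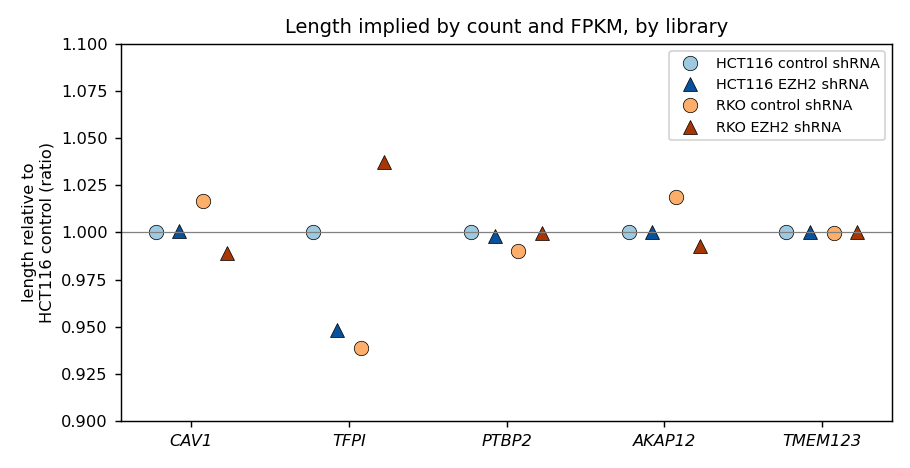
Length implied by count and FPKM for each gene, relative to HCT116 control (ratio), 1 point per library. TFPI spans 0.939 to 1.04, and the other 4 genes stay between 0.989 and 1.02.

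The genes with the most similar pattern were found by the Euclidean distance between centred log2(FPKM + 1) values over the 4 libraries. Because the members share a selected direction, distances among them are descriptions. The closest pair of members was TFPI and TMEM123 (0.55), followed by TFPI and PTBP2 (0.88), and CAV1 and AKAP12 were 1.87 apart. Distances between CAV1 or AKAP12 and any of the other 3 were between 3.95 and 6.20. CAV1 and AKAP12 were thus nearer to each other than to the other 3, whose differences between the lines were smaller.

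For AKAP12 the nearest genes of all measured were TES, a focal adhesion protein (0.31), PDE4B, which breaks down cyclic AMP (0.51), and ALDH1A3, a retinal dehydrogenase (0.52). TES was at 64.51, 108.06, 0.15 and 0.38 FPKM in HCT116 control, HCT116 EZH2 shRNA, RKO control and RKO EZH2 shRNA. For CAV1 they were PLK2, a stress-induced kinase (0.90), PHLDB2 (0.96) and ID1, an inhibitor of helix-loop-helix factors (0.97). In the same order, ID1 was at 346.97, 440.70, 9.67 and 13.47 FPKM. All 6 were far higher in HCT116 than in RKO, which follows from their choice by pattern.

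For TFPI the nearest were the histone gene HIST1H2AC (0.19), whose near-identical copies make its value uncertain, SMAD3, which carries TGF-beta signals (0.27), and RUNX2, the osteoblast transcription factor (0.28). SMAD3 stood at 13.46 and 21.67 FPKM in the HCT116 control and EZH2 shRNA libraries and at 10.42 and 23.05 in those of RKO. PTBP2 was nearest to LRRC40 (0.43), CCDC88A (0.47) and KTN1 (0.47), which had RKO changes of 1.93, 2.01 and 2.13 and, with the G+C trend subtracted, 0.87, 1.31 and 1.38. TMEM123 was nearest to SESN3 (0.10), PLCXD2 (0.13) and ZNF197 (0.13), all at lower levels. ZNF197, for example, was at 5.25, 6.84, 2.01 and 3.93 FPKM across the libraries in the order given for TES.

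The nearest listed gene on either side of each member, in the order of the GRCh38 annotation, was then read in the same libraries. Of these 10 genes 6 were measured, of which 2 were over 1.2-fold higher in HCT116, 3 in RKO, 1 in both and none lower in either, beside 12.7%, 22.7% and 3.99% of all measured genes. CAV1 lies on chromosome 7 between CAV2, its caveolin paralog, and MET, the receptor for hepatocyte growth factor. CAV2 was at 48.84 FPKM in HCT116 control, 70.36 in HCT116 EZH2 shRNA, 4.52 in RKO control and 5.35 in RKO EZH2 shRNA, changes of 0.52 and 0.20. MET was at 76.12, 86.40, 8.07 and 10.50 FPKM in that order, changes of 0.18 and 0.34. Both were lower in RKO, by -3.22 ± 0.20 (edgeR adjusted p = 0.000515) for CAV2 and -2.77 ± 0.14 (edgeR adjusted p = 0.000398) for MET.

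TES also lies on the CAV2 side of CAV1, beyond its nearest neighbours. It was named above for a pattern like that of AKAP12, low in RKO. Its difference between the lines, -8.04 ± 0.24, is therefore a description. ST7, the second listed gene beyond CAV1 on the other side, went the other way, at 1.37 ± 0.20 (edgeR adjusted p = 0.00409), and it was at 9.48 and 10.06 FPKM in HCT116 and 19.55 and 18.40 in RKO. ST7, and LOC107986838 and CTTNBP2 below, were added to this comparison after their values were seen. LOC107986838, the second listed gene on the CAV2 side, was lower in RKO by -6.61 ± 0.86 (edgeR adjusted p = 0.00303). CTTNBP2, the next listed gene beyond ST7, was not called, at 0.59 ± 0.23 (edgeR adjusted p = 0.0730). Low RKO levels were thus shared by CAV1 and its nearest neighbours CAV2 and MET, but not by ST7 or CTTNBP2. They were not particular to the neighbours of CAV1, and 37.4% of all genes tested were called lower. GULP1 beside TFPI was also called lower, at -2.36 ± 0.27, though TFPI was not. Lower as well were CALCRL beside TFPI and DPYD beside PTBP2, both low genes. MTHFD1L and RMND1 beside AKAP12, BIRC2 beside TMEM123 and TMEM56-RWDD3 beside PTBP2 were not called.

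The gene higher in both lines was BIRC2, an inhibitor of apoptosis next to TMEM123 on chromosome 11. It was at 17.91 FPKM in HCT116 control, 23.08 in HCT116 EZH2 shRNA, 7.38 in RKO control and 26.37 in RKO EZH2 shRNA, changes of 0.35 and 1.71. On the other side of TMEM123, MMP7, a matrix metalloproteinase, averaged under 1 FPKM and was at 0.37 and 2.30 FPKM in HCT116 and 0 in both RKO libraries. Beside AKAP12 on chromosome 6, MTHFD1L, a mitochondrial folate enzyme, changed by -0.24 and -0.18, and RMND1 by -0.17 and 0.01, neither past 1.2-fold. Beside TFPI on chromosome 2, GULP1, an adaptor for engulfing dead cells, was at 22.31 and 21.90 FPKM in HCT116 and 2.44 and 4.63 in RKO; its RKO change of 0.71 was 0.17 with the G+C trend subtracted. CALCRL on the other side of TFPI, and both neighbours of PTBP2 on chromosome 1 (the readthrough TMEM56-RWDD3 and DPYD), averaged under 1 FPKM.

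**Figure D5:**
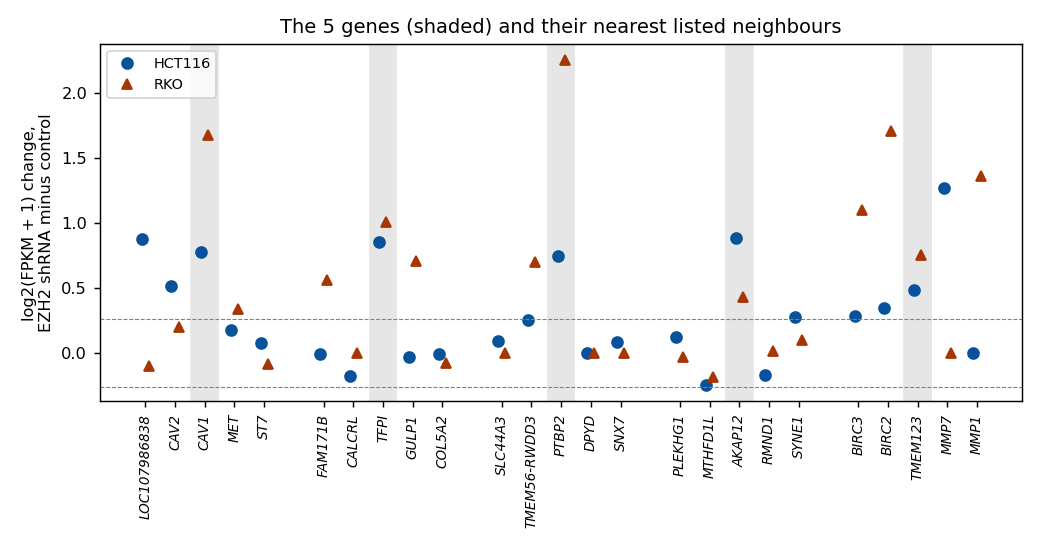
Change in log2(FPKM + 1), EZH2 shRNA minus control, for the 5 genes (shaded) and their nearest listed neighbours, with circles for HCT116 and triangles for RKO. BIRC2 is at 0.35 and 1.71 beside TMEM123, while MTHFD1L and RMND1 beside AKAP12 lie between -0.24 and 0.01.

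Genes that work with each member were described from 5 lists, each without the member itself, against medians over all measured genes of 0.01 in both lines. Some listed genes passed the measured mark through HCT116 alone, so RKO medians are given over the genes with a mean of at least 1 FPKM in RKO, a restriction added after the values were seen (median over all such genes, 0.02). For caveolae, 5 of 22 genes were measured, of which 1 was over 1.2-fold higher in HCT116 (CAV2), 1 in RKO (EHD1) and none in both. Over all measured genes these shares were 12.7%, 22.7% and 3.99%. The median change was 0.08 in HCT116 and, over 4 genes, 0.07 in RKO, where it was -0.06 over all 5. EHD1, a membrane-recycling ATPase, was at 18.21 and 16.88 FPKM in HCT116 and 50.72 and 86.45 in RKO. EHD2, which stabilises caveolae at the cell surface, was at 34.27, 36.27, 9.12 and 8.38 FPKM in the order HCT116 control, HCT116 EZH2 shRNA, RKO control and RKO EZH2 shRNA. FLOT2, a flotillin, was at 41.97, 49.78, 37.95 and 36.49 FPKM in that order. With 5 genes measured, none higher in both lines is near the 3.99% of all measured genes, and nothing is read from it.

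Of the coagulation and fibrinolysis list, 14 of 37 genes were measured besides TFPI. Over 1.2-fold higher were 5 in HCT116, 6 in RKO and 4 in both (beside 12.7%, 22.7% and 3.99% of all measured genes), and 1, F12, was lower in HCT116. The medians were 0.24 and, over 12 genes, 0.22. Among the 4 were S100A10, F3 and PLAT, of which F3 and PLAT, like F12, were named after their values were seen. F3 encodes tissue factor, the protein whose activity TFPI blocks, and it was at 6.64 FPKM in HCT116 control, 10.27 in HCT116 EZH2 shRNA, 2.68 in RKO control and 4.22 in RKO EZH2 shRNA. The inhibitor and its target were therefore both higher in both knockdown libraries, with F3 changes of 0.56 and 0.50.

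S100A10, which binds plasminogen at the cell surface with annexin A2, was at 167.83 and 263.52 FPKM in HCT116 and 76.72 and 122.45 in RKO, changes of 0.65 and 0.67. PLAT, tissue plasminogen activator, changed by 0.32 and 0.28. PLAU, urokinase, was at 12.52 and 12.57 FPKM in HCT116 and 53.65 and 204.11 in RKO, changes of 0.01 and 1.91. PROCR, the endothelial protein C receptor, was at 44.89, 38.84, 118.18 and 116.42 FPKM across HCT116 control, HCT116 EZH2 shRNA, RKO control and RKO EZH2 shRNA, and did not pass the mark in either line. In this list clotting and fibrinolysis genes of opposing roles were among those higher.

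The list of polypyrimidine tract binding proteins and neuronal splicing regulators had 10 measured genes of 32 besides PTBP2. Over 1.2-fold higher were 3 genes in each line, 2 of them in both, and none was lower, beside 12.7%, 22.7% and 3.99% of all measured genes higher. The median was 0.11 in HCT116 and 0.25 over the 7 genes expressed in RKO, where 2 others were at 0 FPKM in both libraries. The 2 genes higher in both were MBNL2 and MBNL3, muscleblind splicing regulators, named after their values were seen. MBNL2 was at 21.98 and 27.88 FPKM in HCT116 and 1.26 and 6.17 in RKO, and MBNL3 changed by 0.35 and 0.81. MBNL1 changed by -0.04 and 0.59. With the G+C trend subtracted, the RKO changes were 0.82 for MBNL2, 0.75 for MBNL3 and 0.19 for MBNL1. After that step 2 genes of the list were still higher in both lines. The RKO median over the 7 genes was not taken with the trend subtracted. PCBP1, a poly(C)-binding protein, was at 178.09 and 178.19 FPKM in HCT116 and 198.41 and 193.53 in RKO, and ELAVL1, which stabilises AU-rich messages, changed by -0.22 and -0.16, neither past the mark.

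Neuronal markers were read beside PTBP2 because it is the neuronal paralog: the 5 of 7 in the table summed to 114.92 and 124.42 FPKM in HCT116 and 52.57 and 44.21 in RKO. SNAP25, a synaptic vesicle fusion protein, was at 0.58 FPKM or less and RBFOX3 at 0.26 or less in every library, and most of each sum was TUBB3, at 87.88 and 92.00 FPKM in HCT116 and 52.44 and 43.92 in RKO. SYT1, a synaptic calcium sensor, was at 23.92 and 27.20 FPKM in HCT116 and 0.00 and 0.05 in RKO, and MAP2, a dendritic microtubule protein, was at 2.35 and 4.48 in HCT116 and 0.11 and 0.20 in RKO. The lower sum in RKO EZH2 shRNA than in RKO control was that of TUBB3; PTBP2 was 6.19-fold higher in FPKM there, and the part of these markers in its change was not tested. PTBP1 and PTBP3 were not analysed here.

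Of the list of A-kinase anchoring proteins and protein kinases A and C, 21 of 40 genes were measured besides AKAP12. Over 1.2-fold higher were 6 genes of HCT116 and 4 of RKO, 2 of them shared, and 1 was lower in RKO. Over all measured genes the shares higher were 12.7% in HCT116, 22.7% in RKO and 3.99% in both, so that 4 of 21 in RKO was no more than the background. The median was 0.13 in HCT116 and -0.01 over the 15 genes expressed in RKO, where 3 were at 0 FPKM in both libraries. The 2 shared were AKAP9, a centrosomal and Golgi scaffold, with changes of 0.29 and 1.32, and the atypical kinase C gene PRKCI, with 0.34 and 0.31, both named after their values were seen. With the G+C trend subtracted no gene of this list was higher in both lines. PRKACA, a catalytic subunit of protein kinase A, was at 67.10 and 73.42 FPKM in HCT116 and 26.62 and 25.12 in RKO. PRKACB, the other such subunit named here, was at 75.57 and 73.58 FPKM in HCT116 and 0.01 and 0.03 in RKO. MARCKSL1, a kinase C substrate, was between 194.63 and 228.84 FPKM in all libraries.

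For sialomucins and oncosis, 8 of 17 genes were measured besides TMEM123, and as deposited none was past 1.2-fold in either direction in either line. Over all measured genes, 12.7% were higher in HCT116 and 22.7% in RKO, and 9.66% and 10.9% were lower. The medians were 0.05 and, over 6 genes, -0.03. CD164, a sialomucin, was at 82.74 and 79.50 FPKM in HCT116 and 40.19 and 48.31 in RKO. Its RKO change of 0.26 was just under the mark, and with the G+C trend subtracted it was -0.56, past the mark downward. PODXL, or podocalyxin, was between 21.22 and 36.63 FPKM in all libraries. CAPN2, a calpain protease, stayed between 87.83 and 92.48 FPKM in HCT116 and between 220.93 and 224.38 in RKO, and PARP1, a DNA damage sensor, was at 119.25, 121.99, 91.99 and 78.59 FPKM across the libraries. As deposited, TMEM123 was the only measured gene of its list past the mark, and it had been selected for it. With 8 other genes measured, nothing is read from this.

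Between the lines, the genes tested in each list, without the member, were called in both directions. Lower in RKO were 3 of 5 caveola genes, 10 of 19 coagulation genes, 5 of 11 splicing regulators, 13 of 22 anchoring and kinase genes and 4 of 9 sialomucin genes, beside 37.4% of all genes tested. Higher in RKO were 1, 7, 3, 6 and 4 of them, beside 27%. Some genes counted as lower were at 0 FPKM in both RKO libraries and entered the test through HCT116 alone. That fixed their direction, so the counts are descriptions. The same filter lay behind the shares of all genes tested. The levels of CAV1 and AKAP12 in RKO were thus low in lists that held genes higher in RKO as well.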

How the data were processed

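RNA of 4 libraries was read on the MGISEQ-2000 platform. Per the study's methods, the authors used Bowtie for mapping and RSEM for gene levels, with tool versions not given in the sources consulted. The processing notes name Bowtie2, BWA, hg19 and GRCh37, and the methods a mouse build, so the build was not settled. The deposited table held FPKM values (2 decimals) and expected counts, plus the authors' log2 ratios, which were not used. It listed 7640 genes; 13 symbols turned into dates were restored through gene IDs.

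Changes were differences of log2(FPKM + 1) at a 1.2-fold mark, over genes averaging at least 1 FPKM. The pseudocount of 1 understates the change of low genes. Count ratios were scaled by relative depth, with exact binomial 95% intervals. The G+C trend (lowess, span 0.3) used GENCODE 29 transcripts, matched for 99.1% of measured genes. Lines were compared with edgeR 4.0.16 (R 4.3.3, TMM, filterByExpr, Benjamini-Hochberg) on the deposited expected counts rounded to whole numbers, with DESeq2 1.42.0 and limma 3.58.1 as alternatives. The SE given is the absolute log2 difference divided by the square root of the F statistic of the edgeR test. Tested on simulated data for that comparison (7409 genes), the fit recovered 97 of 100 genes at 2-fold and 100 of 100 at 4-fold. It called 14 unchanged genes. The simulation had 1 fixed dispersion, few changed genes and no shRNA effect, so these figures do not give the performance on the real counts.

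The members and lists were chosen with earlier results of these data known. Named were the members, EZH2, the 4 measured genes of highest mean FPKM per list, paralogs, nearest neighbours and the 3 nearest patterns; other names are marked as such or stand where a count is given. Of the genes that this rule names, 2 are counted in their lists but not reported here.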

Additional observations from a re-analysis of the deposited data

How the results depend on the processing

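All 5 genes kept an upward change in both lines under every alternative for the within-line change. That change ran from 0.74 to 0.78 in HCT116 and 1.56 to 1.92 in RKO for CAV1, from 0.81 to 0.92 and 0.66 to 1.12 for TFPI, from 0.69 to 0.83 and 1.56 to 2.63 for PTBP2, from 0.85 to 0.89 and 0.33 to 0.59 for AKAP12, and from 0.45 to 0.49 and 0.51 to 0.76 for TMEM123. The pseudocount moved CAV1 in RKO to 1.92 (0.01) and PTBP2 in RKO to 2.59 (0.1) and 2.63 (0.01). With the G+C trend subtracted, values were 0.74 for CAV1 and 0.85 for AKAP12 in HCT116, and 0.66 for TFPI, 1.56 for PTBP2 and 0.51 for TMEM123 in RKO. TMEM123 in RKO was 0.60 under median-of-ratios scaling and 0.61 with TMM-scaled counts (CPM). Against the FPKM values, the median-of-ratios factors amount to a log2 shift of -0.16 in the RKO change and 0.31 in RKO minus HCT116, before the pseudocount, which makes the shift of low genes smaller; the edgeR differences use TMM and not this scale.

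The 245 measured genes higher in both lines became 19 at 1.5-fold, 1 at 2-fold, 151 at a mean of at least 5 FPKM, 425 with a pseudocount of 0.1 and 158 under median-of-ratios scaling. The 163 lower in both became 15, 2 and, under median-of-ratios scaling, 288. Of the 5 genes, 3 passed 1.5-fold in both lines and 0 passed 2-fold. For anchoring and kinase genes, the 2 higher in both became 1 under median-of-ratios scaling and 0 with the G+C trend subtracted, and the RKO median of the sialomucin list, over all 8 measured genes, went from 0.00 to -0.14 under that scaling. The G+C step for counts and lists, and the RKO medians over genes expressed in RKO, were chosen after seeing the data.

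Between the lines, the control and EZH2 shRNA pairs alone gave -5.02 and -4.06 for CAV1, -0.87 and 0.80 for PTBP2, and -6.19 and -6.66 for AKAP12. Without the shRNA term TMEM123 was at -0.44 (edgeR adjusted p = 0.202). The calls of CAV1 and AKAP12 held under every tool and filter run on the 4 libraries. Genes lower in RKO were 2770 by edgeR, 2041 by DESeq2 and 2440 by limma, and genes higher 2003, 1594 and 1499. The shRNA term compares the lines within each shRNA state. By replicate number, no paired analysis was possible because each group had 1 library. Counts were lowest for PTBP2, CAV1 and TFPI in RKO control (154, 187 and 320.2), followed by PTBP2 in HCT116 control (342) and AKAP12 in RKO control (343).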
